A study of Mus musculus with 4 samples.

Results

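The genes described here are the 83 mouse genes that encode proteins of the cytosolic ribosome, out of 31053 genes counted. They were chosen by name alone: Rplp0, Rplp1, Rplp2, Rpsa, and every symbol made of Rps or Rpl, a number and at most a short suffix, with processed pseudogenes left out. Of these, 51 carry names of the large subunit and 32 of the small subunit. All 83 identifiers were found in GENCODE vM21 on GRCm38, with the same symbols, as protein-coding genes on 19 chromosomes.

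The cells were CD45+ leukocytes sorted from total colon tissue of C57BL/6 wild-type mice, and their RNA was sequenced as single-cell 10x Genomics libraries. Animals had either control treatment or restraint stress on each of 7 days, and each treatment had 2 libraries. Age, sex and the number of animals behind a library are not given in the sources used here, and nothing in the labels says that libraries of 1 treatment came from separate animals. The p-values for stress therefore measure the spread between these libraries, which may be technical. Those between cell classes measure how far class differences vary from library to library, any effect of stress on them included.

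A ribosome holds 1 copy of nearly every one of these proteins. Many of these mRNAs start with a run of pyrimidines, the terminal oligopyrimidine (TOP) tract, through which mTOR and the RNA-binding protein LARP1 control their translation. In the immune system, resting lymphocytes are known for a large share of ribosomal protein mRNA, and plasma cells devote most of their mRNA to immunoglobulin. A small number of these genes have a second, similar gene elsewhere in the genome (a paralog), such as Rps27l beside Rps27 and Rpl22l1 beside Rpl22.

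Sequences near the start of transcription are shown for members whose values carry the results, with the longest run of C and T within 50 bases of the start in capitals. They are 30-base windows of the gene's strand from RefSeq promoters on GRCm38.p6. Rps27 and Rps27l are shown as the pair that differed most between cell classes, Rpl38 and Rplp2 as members with their highest share in 1 library (stress 2) in every class, and Rpl5 as one with its lowest share in another (control 1) in every class.
Rps27: tccgctttcgCTCCTTTCCggcggtgacga
Rps27l: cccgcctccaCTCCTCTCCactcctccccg
Rpl38: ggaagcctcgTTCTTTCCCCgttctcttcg
Rplp2: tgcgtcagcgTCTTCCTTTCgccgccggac
Rpl5: cctacagccaCTCTTTCTCacgtcgcttgc
The Rps27 window lies at chr3:90213631-90213660 on the minus strand, and its run begins 2 bases before the annotated start. The Rps27l window lies at chr9:66946054-66946083 on the plus strand, and its run begins 22 bases before the start. A second listed Rps27l promoter, not shown, has a longest run of 5 bases, in the window chr9:66946376-66946405. The others, all on the plus strand, lie at chr11:114668568-114668597 for Rpl38, chr7:141447636-141447665 for Rplp2 and chr5:107900498-107900527 for Rpl5. Their runs begin 2, 5 and 20 bases before the start.

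Promoters were listed for 63 of the 83 genes, 75 promoters in all, among 32851 promoters of all genes. A run of at least 8 C or T letters within 50 bases of the start was present in 77.3% of the ribosomal protein promoters and in 35.7% of all promoters, and the median longest run was 10 against 7 bases. The letters CTTTCC, searched on both strands of the window from 250 bases before to 50 bases after the start, were found in 49.3% of these promoters and 26.6% of all. The letters CGGAAG, the core of a site bound by ETS factors, were found on either strand in 60.0% and 16.9%. The letters AAGATGG, the core of the YY1 motif, were found in 16.0% and 6.34%. Read on the other strand CGGAAG is CTTCCG, so it can overlap a pyrimidine run. A match is only a description of the sequence.

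The 4 libraries held 24915 barcodes, of which 20476 had at least 500 unique molecular identifiers (UMIs, each counting 1 captured mRNA molecule) and at most 10% mitochondrial UMIs. Control 1 kept 2562 barcodes, control 2 kept 5443, stress 1 kept 8333 and stress 2 kept 4138. Median depth per kept barcode was lowest in stress 1, at 2174 UMIs, and highest in stress 2, at 4547 UMIs, and 26.0% of the barcodes of stress 2 were left out for mitochondrial UMIs, against 11.1% to 18.8% in the other libraries. Between 3 and 12 kept barcode sequences were shared by any 2 libraries. Cell classes were set by marker genes, none of which is a ribosomal protein gene, and 17218 barcodes (84.1%) fell into 1 class. Of all kept barcodes, 3454 passed the class rule with the smallest lead it allows and 2281 missed it by 1 marker. Fibroblast markers gated 227 barcodes in control 1 and 1 to 8 in the other libraries, although the labels name CD45+ cells in all of them.

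Ribosomal protein mRNA took 19026737 of the 102976461 kept UMIs, or 18.5%. The share followed the cell class far more than the treatment, as the plot of shares by class and library shows. Naive-marker T cells, gated by genes of naive T cells such as Lef1 and Ccr7, were highest, with 33.1% in control 1, 37.0% in control 2, 33.1% in stress 1 and 30.8% in stress 2, a mean of 33.5% ± 2.60 (SD, n = 4 libraries). Resting B cells held 30.5%, 29.6%, 29.4% and 31.4% in the same order, a mean of 30.2% ± 0.892, and these 2 classes overlapped. Activated B cells, gated by early response genes such as Egr2 and Nr4a1, stood at 28.9% ± 0.879, and dividing B cells, gated by mitotic genes such as Mki67, at 24.4% ± 0.839. Other T cells, without the naive markers, stood at 23.1% ± 1.94, below every library's naive-marker T cells. C1q-negative monocytes held 17.4% ± 1.27 and C1q-positive macrophages 15.6% ± 1.63, and these 2 classes overlapped between libraries. Within each library monocytes were higher, with 17.9%, 18.8%, 15.8% and 17.1% against 14.0%, 17.7%, 14.7% and 16.1% in the same order. Plasma cells were lowest of the 8 classes, with 6.17%, 6.89%, 6.57% and 6.84%, a mean of 6.61% ± 0.330.

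**Figure D1:**
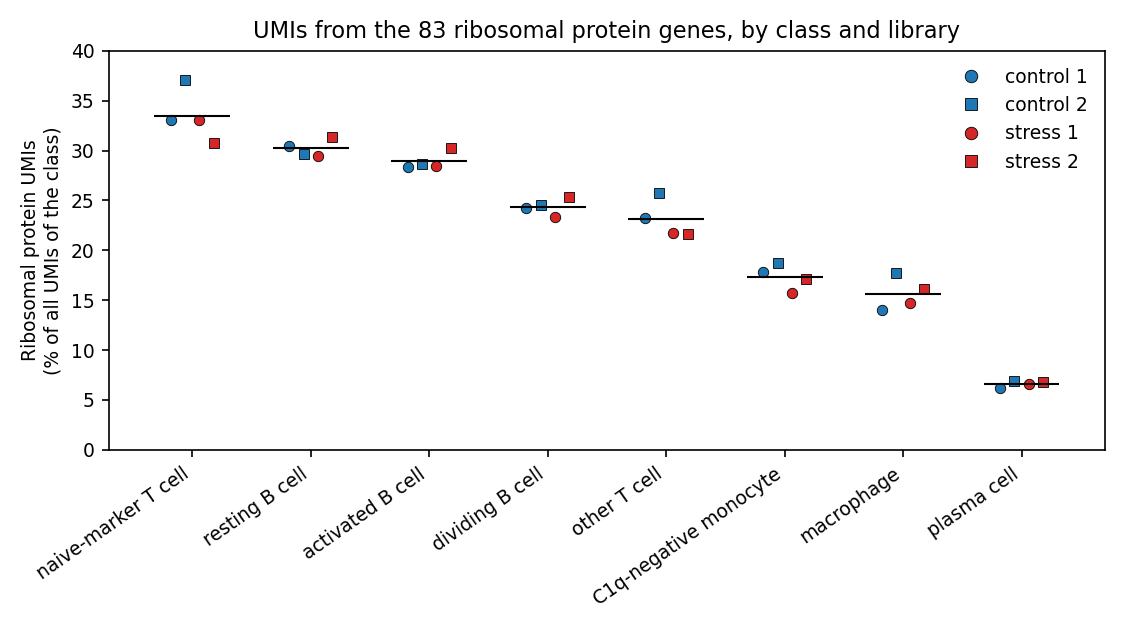
Share of all UMIs of a class that came from the 83 ribosomal protein genes (y axis, percent), for the 8 classes with at least 30 barcodes in every library (x axis). Points are libraries, blue for control and red for stress, and the black line is the mean of 4; naive-marker T cells average 33.5% and plasma cells 6.61%.

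The plasma cell value depends on what it is a share of. Immunoglobulin UMIs made up 65.9% of plasma cell UMIs on average. When immunoglobulin and mitochondrial UMIs were left out of the total, ribosomal protein genes took 20.9% ± 0.647 (SD, n = 4) in plasma cells. Plasma cells were then no longer lowest: monocytes averaged 18.1% ± 1.27 and macrophages 16.4% ± 1.70 on the same total. The T cell and other B cell classes stayed above plasma cells, from 24.4% ± 2.00 in other T cells to 35.7% ± 2.68 in naive-marker T cells. Other classes were too thin for tests. Pooled shares averaged 29.1% ± 1.75 in ILC2 (12 to 52 barcodes a library), 23.5% ± 1.43 in NK cells or ILC1 (17 to 50), 21.8% ± 1.28 in dendritic cells (6 to 14) and 3.27% ± 0.391 in neutrophils (1 to 41). In fibroblasts the 227 barcodes of control 1 gave 14.9%, with an exact 95% binomial interval of 14.8 to 15.0% that covers counting error only.

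Single ribosomal protein genes differed strongly in level, and their order was much alike in all classes. Rps24 gave the largest part of all ribosomal protein UMIs, 3.06% ± 0.169 over the 4 libraries, followed by Rpl13 with 2.84% ± 0.267 and Rpsa, the small-subunit protein also known as the laminin receptor, with 2.22% ± 0.141. The top 10 genes together held 22.4%. At the low end, Rpl13a gave 0.175% ± 0.00774, Rps27l 0.0971% ± 0.0356 and Rpl7l1 0.0209% ± 0.00303. Rpl39l, Rpl3l and Rpl10l, paralogs known for testis or muscle expression, had 42, 17 and 1 UMIs in all kept barcodes, and they passed no filter on low counts within a class. Of the 83 genes, 80 were tested in each class and 81 over all kept barcodes. A UMI counts a molecule once whatever its length, so these shares were not divided by transcript length.

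Across the 79 members with a mean share of at least 0.1%, the log2 profile of 1 class correlated between 2 libraries with Pearson r of 0.947 to 0.993 (median 0.968), and 2 classes of the same library with r of 0.823 to 1.00 (median 0.937). These are descriptions over genes, which share library and depth. For the typical member, the class with the highest mean share stood 1.38-fold above the class with the lowest (median of 79), and 74 stayed below 2-fold. Rps10, Rpl13 and Rps15 were the most even, at 1.09-, 1.12- and 1.13-fold. The other 5 stood at 2-fold or more: Rps27l at 16.2, Rpl12 at 2.57, Rpl41 at 2.52, Rps27 at 2.37 and Rpl10 at 2.02. Rps27l averaged 0.108% over the classes, from 0.0222% in naive-marker T cells to 0.359% in plasma cells. It met the limit of 0.1% only through plasma cells, the class where it is highest.

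Differences between classes were tested with edgeR's quasi-likelihood test on UMIs summed by library and class, with the library as a block and Benjamini-Hochberg adjustment over 10140 genes. Levels are given as CPM, UMIs scaled to a common library total with TMM factors of that fit, and differences in log2 units. All contrasts with resting B cells share the same 4 resting B cell sums. Between activated and resting B cells no member passed: 0 of 80 were higher, against 1.57% of all genes, 0 were lower, against 0.237%, and 0 had an unadjusted p under 0.05, against 10.8% of genes. The members' median difference was -0.06, as the plot of class differences shows.

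Plasma cells were lower than resting B cells in 74 of 80 members (background 32% of genes lower) and higher in 2 (31.6% of genes higher), with a median of -0.72 against -0.01 over all genes. The largest falls were Rps27, a zinc-binding protein of the small subunit, from 5224 to 1310 CPM (log2 -1.99 ± 0.08 SE, adjusted p = 1.01e-24, edgeR), Rpl12, at the base of the stalk of the large subunit, from 4435 to 1690 CPM (-1.40 ± 0.09), and Rps19, which is mutated in Diamond-Blackfan anaemia, from 5810 to 2230 CPM (-1.38 ± 0.08). Rps27l rose from 77.6 to 588 CPM (2.92 ± 0.12, adjusted p = 3.90e-24, edgeR). Rpl41, the shortest ribosomal protein, rose from 1903 to 2716 CPM (0.51 ± 0.07, adjusted p = 6.12e-08, edgeR), but the sign turned to -0.93 when libraries were scaled by total UMIs alone, which include immunoglobulin. That scaling put the median of all genes at -1.45 and of the members at -2.16, and called 79 members lower and 1 higher. Of the 4 that did not pass the test, Rpl7a, Rpl10 and Rplp0 had differences of -0.03, 0.08 and 0.00. They are named because so few missed the test, after their values were seen. Plasma cells were also far deeper than resting B cells, with median UMIs per barcode of 12196 to 22542 against 1569 to 3167 in the 4 libraries. Marker sums, here and below, are CPM of total UMIs without TMM factors, so they are not on the scale of the gene levels above. The 6 plasma cell markers summed to 72621 to 78202 CPM in plasma cells and to 450 to 1230 CPM in resting B cells. The 6 B cell markers summed to 461 to 626 CPM in plasma cells and to 5654 to 6276 CPM in resting B cells. The part of depth and of these markers in the differences was not tested.

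Dividing B cells were lower than resting B cells in 68 members (25.7% of genes lower) and higher in 2 (23.8% of genes higher), with a median of -0.50 against -0.09. Rps27 fell by 1.41, Rps24 by 1.19 and Rps29 by 1.01 on the log2 scale. Rps27l rose by 1.38, from 77.6 to 202 CPM. The P-stalk genes parted here: Rplp1 fell by 0.55 and Rplp2 by 0.43, while Rplp0, the protein that anchors both to the ribosome, had a difference of 0.11 that did not pass the test. By total UMIs alone, 55 members were lower and 9 higher. Median depth was 6871 to 10839 UMIs per barcode in dividing B cells, and the plasma cell markers summed to 1637 to 2301 CPM there, above resting B cells. Barcodes at the edge of the class rule made up 44.3% of the dividing B cell class. The part of these in the differences was not tested.

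**Figure D2:**
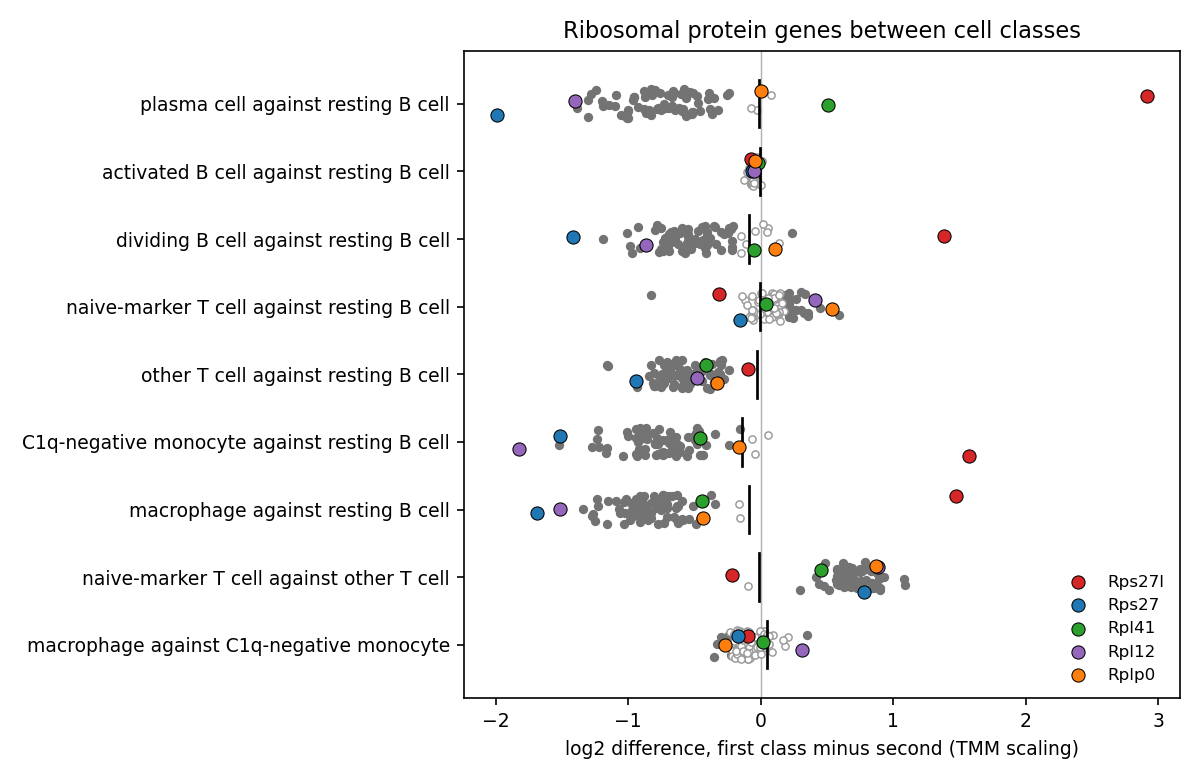
Log2 difference of each tested ribosomal protein gene between 2 cell classes (x axis; rows are the 9 contrasts). Small filled points passed the edgeR test and open points did not, coloured points name 5 genes whatever their call, and the black tick is the median of all genes; Rps27l lies at 2.92 in plasma cells against resting B cells while most members lie below 0.

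Within T cells, 78 of 80 members were higher in naive-marker than in other T cells (7.91% of genes higher), 0 were lower (9.37% of genes lower), and the median was 0.69 against -0.01. Rps19 rose from 2629 to 5594 CPM, by 1.09 ± 0.08, Rps20 from 2950 to 6238 CPM, by 1.08 ± 0.08, and Rps29 from 2061 to 3877 CPM, by 0.93 ± 0.08. Rps27l and Rpl7l1 did not pass the test (-0.21 and -0.09). Median depth per barcode was alike in the 2 T cell classes of each library, for example 3586 UMIs in naive-marker and 3105 in other T cells of control 2, and 4972 and 4629 in stress 2.

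Other T cells were lower than resting B cells in 79 of 80 members (24.4% of genes lower) and higher in 0 (25.4% of genes higher), with a median of -0.58. The largest falls were Rps20 (-1.16), Rps19 (-1.15) and Rps27 (-0.94). Naive-marker T cells were higher than resting B cells in 21 members (21.7% of genes higher) and lower in 2 (20.3% of genes lower), so that the higher count stood near the share of all genes and the lower count below it. By the naming rule the 3 largest differences upward were Rplp1 from 4326 to 6575 CPM (0.60 ± 0.08), Rplp0 from 4261 to 6236 CPM (0.54 ± 0.08) and Rpl5, which carries the 5S rRNA into the ribosome, from 2164 to 3019 CPM (0.45 ± 0.09). Both members that fell are paralogs, Rpl7l1 (-0.82) and Rps27l (-0.31). Rps27l passed narrowly (adjusted p = 0.0497, edgeR). The count of 23 calls was 11 without stress 1 and 45 without stress 2.

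In the myeloid classes, C1q-negative monocytes were lower than resting B cells in 75 members (32.8% of genes lower) and higher in 1 (29.7% of genes higher), and macrophages in 77 (31.8% of genes lower) and 1 (31.3% of genes higher). The medians were -0.74 and -0.85, against -0.14 and -0.08 over all genes. Rps27l was the member that rose in both, to 232 CPM in monocytes (1.57 ± 0.12) and 209 CPM in macrophages (1.48 ± 0.12). Rpl12 fell to 1254 and 1564 CPM, by 1.82 and 1.51, and Rps20 to 2280 and 2599 CPM, by 1.52 and 1.34. Rps9, a small-subunit protein near the mRNA entry site, showed -0.04 in monocytes and did not pass, while it fell by 0.37 in macrophages. Macrophages against monocytes gave 2 higher (4.61% of genes higher) and 8 lower (3.82% of genes lower), among them Rplp1 (0.35) and Rpl12 (0.31) higher and Rps27a (-0.35), Rps9 (-0.33) and Rpl18 (-0.30) lower. Without control 1, Rplp1, Rpl12 and Rpl18 did not pass (adjusted p of 0.0863, 0.0816 and 0.152, edgeR), and Rpl12 did not pass without stress 1 (0.0711). The 10 calls of this contrast were 2 without control 1, 4 without stress 1, and 29 by total UMIs alone, where 27 were lower. Barcodes at the edge of the class rule made up 42.1% of the monocyte class and 9.68% of the macrophage class.

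To see how members were divided among themselves, the same fit was repeated with each sum scaled by its own ribosomal protein total. In plasma cells against resting B cells, 25 members were then higher (58.8% of all genes higher) and 23 lower (11.2% lower). Rps27l rose by 3.66, Rpl41 by 1.26 and Rpl10, an X-linked protein of the large subunit, by 0.83, while Rps27 fell by 1.24, Rpl12 by 0.65 and Rps19 by 0.63. Rplp0 rose in plasma cells by 0.75. In dividing B cells 25 were higher (42.5% of genes) and 21 lower (10.2%), with Rps27l (1.90) and Rplp0 (0.64) among those higher and Rps27 (-0.89), Rps24 (-0.66) and Rps29 (-0.48) downward. Macrophages had 25 higher (58.3% of genes) and 14 lower (9.29%), and monocytes 21 (51.2%) and 19 (11.6%). Rps27l rose by 2.33 in each, and Rpl10 by 0.72 and 0.81. Rps9 rose in monocytes by 0.71 and Rpl7a in macrophages by 0.71. Rpl12 fell by 1.07 in monocytes and by 0.64 in macrophages.

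The T cell classes differed less in this division. Other T cells against resting B cells had 19 members higher (58.6% of genes) and 14 lower (8.42%), and naive-marker T cells 10 higher (16.4%) and 15 lower (27.6%). Naive-marker against other T cells had 10 higher (1.27%) and 11 lower (72.7%), with Rps20 and Rps19 up by 0.36 each and Rps27l, Rpl7l1 and Rpl27 down by 0.95, 0.87 and 0.42. These last 21 calls were 8 without stress 1 and 12 without control 1 or without stress 2. The 25 calls of naive-marker T cells against resting B cells were 14 without control 1, 10 without stress 1 and 15 without stress 2, and the 33 of other T cells were 19 without stress 1. Macrophages against monocytes had 4 higher (5.72%) and 2 lower (1.91%), 6 calls that were 2 without control 1 and 3 without control 2. Activated against resting B cells had 0 higher (1.56%), 0 lower (0.0789%) and 0 at an unadjusted p under 0.05 (9.93% of genes).

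Rpl41 is a clear case of the division by class. In plasma cells it made up 1.71% of ribosomal protein UMIs in control 1, 1.60% in control 2, 1.25% in stress 1 and 2.04% in stress 2. In resting B cells the same libraries gave 0.731%, 0.614%, 0.559% and 0.841%. Every plasma cell value lay above every resting B cell value, and stress 2 was highest and stress 1 lowest in both. Rpl12 was lowest on average in monocytes, with 0.643%, 0.861%, 0.836% and 0.736%, and highest in naive-marker T cells, with 1.45%, 2.19%, 2.30% and 1.95%, and these 2 classes did not overlap.

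Rps27 and Rps27l encode nearly the same small-subunit protein, and Rps27l is known as a p53-induced gene. As a share of the UMIs of the pair, Rps27l made up 32.2% in control 1, 34.5% in control 2, 33.1% in stress 1 and 26.1% in stress 2 in plasma cells. In resting B cells it made up 1.76%, 1.41%, 2.01% and 1.02%. The plasma cell values rest on 623, 597, 2840 and 3964 Rps27l UMIs, and the highest value in any other class was 13.7%, in monocytes of control 1. Monocytes averaged 11.7% ± 2.23 (SD, n = 4), macrophages 11.5% ± 2.45 and dividing B cells 9.77% ± 2.13, and these 3 classes overlapped. Other T cells averaged 2.68% ± 0.544, naive-marker T cells 1.44% ± 0.418, and activated B cells ranged from 1.21% to 1.64%, the last 2 overlapping resting B cells. Stress 2 was the lowest library in plasma cells, monocytes, dividing, activated and resting B cells, and Rps27 took its largest share of ribosomal protein UMIs in stress 2 in each of them.

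**Figure D3:**
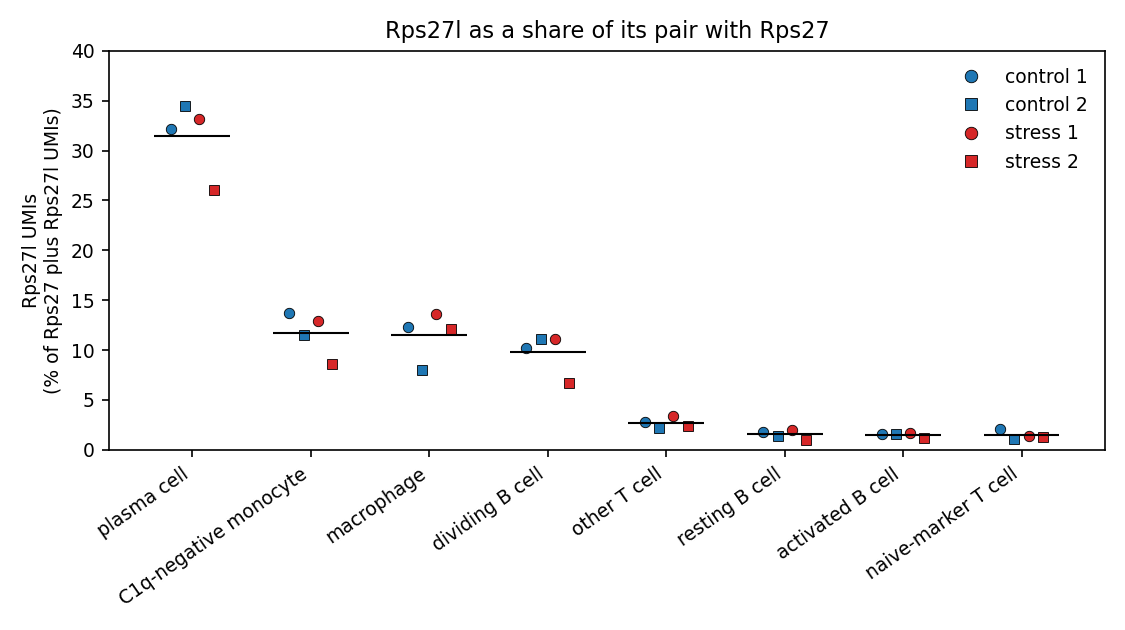
Rps27l UMIs as a percent of Rps27 plus Rps27l UMIs (y axis) in the 8 cell classes (x axis). Points are libraries and lines are means of 4; plasma cells lie between 26.1% and 34.5%, and resting B cells between 1.02% and 2.01%.

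The other pairs were more even. Rpl22l1 made up 35.2% ± 1.27 of the Rpl22 and Rpl22l1 UMIs in naive-marker T cells, 34.0% ± 2.19 in dividing B cells and 32.4% ± 2.24 in plasma cells, and 28.9% ± 1.47 in resting B cells and 27.0% ± 1.75 in monocytes. Rpl7l1 stayed between 1.04% ± 0.141 of its pair with Rpl7 in naive-marker T cells and 2.53% ± 0.205 in macrophages. Reads of near-identical processed pseudogenes can be lost or exchanged, so levels of single members are uncertain. Rows for such copies, which the name rule leaves out, were small against the ribosomal protein UMI total: Rpl10-ps3 held 0.0790% and Rps27rt 0.159% of it. Over all kept barcodes, however, Rps27rt had 30168 UMIs, more than the 18395 of Rps27l. The shares of the Rps27 and Rps27l pair leave Rps27rt out.

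The libraries differed in how short and long members were divided, in every class. Length was taken as the longest annotated coding sequence of a gene. Among the 79 members, 9 were under 300 bases by it: Rps29, Rpl38, Rps27, Rps28, Rps21, Rpl37a, Rpl37, Rpl41 and Rpl39. All 9 took their highest share in stress 2 in 8 of 8 classes, with a median log2 deviation from the 4-library mean of 0.38, against -0.04 for the 70 longer members. In stress 1 the 9 had a median of -0.26, and the 70 had 0.02. Rps27l, the paralog of Rps27, has 315 bases in its longest annotated form and so counted among the 70. Its share was highest in stress 2 in only 3 of 8 classes. The deviation of a member correlated with its log2 coding length with r = -0.77 in stress 2 and r = 0.84 in stress 1, and with r = -0.08 in control 1 and 0.34 in control 2 (79 members, which share library and depth). This pattern was noticed in the data, and the length limit was set after the values were seen.

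**Figure D4:**
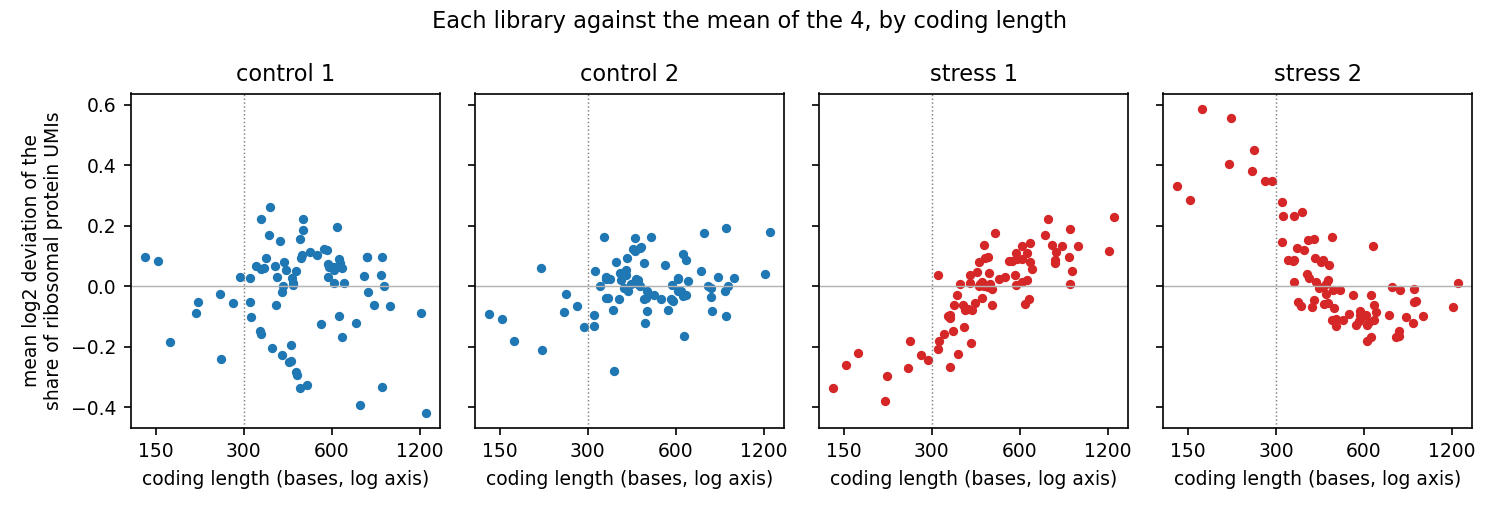
Mean over 8 classes of the log2 deviation of a member's share in 1 library from the mean of the 4 (y axis) against its longest annotated coding length in bases (x axis, log scale), with 1 panel a library and 1 point for each of 79 members. The dotted line marks 300 bases; in stress 2 the 9 shorter members all lie above 0, with a median of 0.38, and in stress 1 their median is -0.26.

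Rps29 shows it in single values. It made up 1.08%, 1.17%, 1.10% and 1.96% of ribosomal protein UMIs in resting B cells of control 1, control 2, stress 1 and stress 2, and 0.946%, 0.953%, 0.927% and 1.60% in plasma cells. Stress 1 lay with the controls and stress 2 stood alone. In control 1, 11 members had their lowest share in all 8 classes, among them Rpl4, Rps6, Rpl5 and Rpl12. Mean log2 deviations there were -0.42 for Rpl4 and -0.39 for Rps6. Such a count was not particular to control 1: it was 3 in control 2, 12 in stress 1 and 11 in stress 2. The 2 stress libraries lay at opposite ends for the short members, and stress 1 and stress 2 were also the libraries of lowest and highest median depth. The part of depth in this was not tested.

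Stress was compared with control in each of the 8 classes and over all kept barcodes, 2 libraries against 2, with the same edgeR test and adjustment over all genes of a class. No member passed in any class. The counts were 0 of 80 in C1q-negative monocytes (0.711% of all genes called), activated B cells (0.246%), dividing B cells (0%), macrophages (2.49%), naive-marker T cells (0.0128%), other T cells (0.372%), plasma cells (0.615%) and resting B cells (0.539%), and 0 of 81 over all kept barcodes (0%). DESeq2 also called 0 members in each, where it called 0.379%, 0.0739%, 0%, 1.06%, 0.102%, 0.263%, 0.71%, 0.0933% and 0.997% of all genes in the same order. At an unadjusted p under 0.05, edgeR gave 10 members in other T cells (8.83% of genes), 6 in monocytes (9.79%), 1 in naive-marker T cells (7.2%), 1 in macrophages (14.4%), and 0 in activated B cells (9.09%), dividing B cells (4.47%), plasma cells (10.8%), resting B cells (9.37%) and all kept barcodes (6.59%). The smallest adjusted p of a member was 0.299, for Rps27l in macrophages (edgeR). Leaving out control 1 gave 18 calls over all kept barcodes, 17 lower and 1 higher, and 2 in macrophages, both lower. Without control 2 there was 1 call each in activated B cells and macrophages, and without stress 1 there were 2 in dividing B cells and 1 each in plasma and resting B cells, all higher.

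The median log2 difference, stress minus control, was -0.23 in naive-marker T cells (77 of 80 members negative, all-gene median 0.01), -0.23 in other T cells (76 of 80 negative, all-gene median -0.01) and -0.18 in C1q-negative monocytes (75 of 80 negative, all-gene median 0.00). It was -0.09 in macrophages, -0.02 in resting B cells, 0.04 in activated B cells, -0.00 in dividing B cells and -0.01 in plasma cells, as the plot of stress differences shows. A direct test of whether classes differed in this called no member. Since all members are scaled together and their sums are large, their signs are not separate observations. Leaving out 1 library at a time moved the median between -0.38 and -0.14 in naive-marker T cells, between -0.30 and -0.19 in other T cells and between -0.25 and -0.13 in monocytes. In macrophages it ran from -0.22 without control 1 to 0.05 without control 2. The summed level of the 6 plasma cell markers was higher in both stress libraries in the same classes: 89.2 and 84.0 CPM in control against 209 and 341 CPM in stress in monocytes, 77.2 and 116 against 549 and 399 in other T cells, 76.6 and 136 against 1252 and 385 in naive-marker T cells, and 106 and 54.8 against 694 and 375 in macrophages. It was also higher in stress in resting B cells (561 and 450 against 908 and 1230 CPM) and activated B cells (386 and 439 against 1849 and 810). A median of 0 of the 6 markers was detected per barcode in the control libraries of the T cell and myeloid classes, and 0 or 1 in the stress libraries. Marker sums are again CPM of total UMIs. Other marker lists also differed between the groups without overlap, in both directions. Dendritic cell markers in monocytes were at 400 and 187 CPM in control against 156 and 134 in stress. ILC2 markers in other T cells were at 147 and 106 against 72.2 and 91.6. Monocyte or macrophage markers in other T cells went up, from 33.1 and 32.5 to 139 and 79.4. The part of these shifts in the stress differences was not tested.

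**Figure D5:**
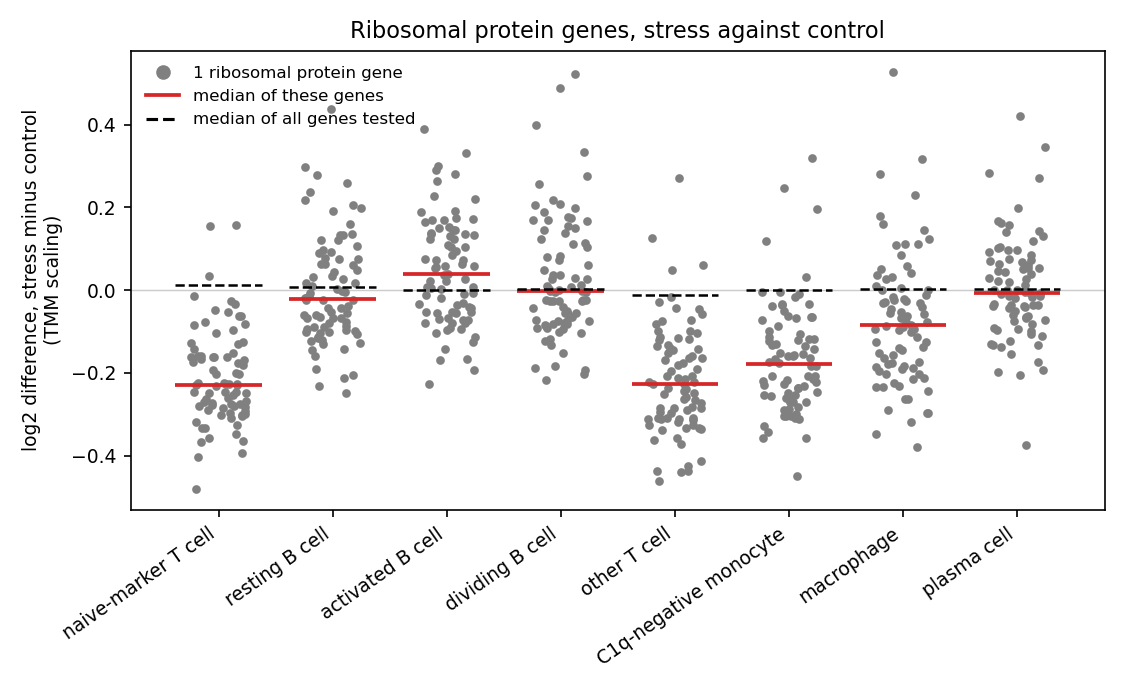
Log2 difference, stress minus control, of the 80 tested ribosomal protein genes (y axis) in 8 cell classes (x axis), from edgeR with TMM scaling and 2 libraries a group. The red line is the median of these genes and the dashed line the median of all genes tested; the red lines lie at -0.23 in both T cell classes and within 0.04 of 0 in the 4 B-lineage classes.

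Values by library show how far the groups parted. In other T cells Rps24 stood at 7930 and 8023 CPM in control 1 and 2 and at 5886 and 5707 CPM in stress 1 and 2, scaled within that class (log2 -0.46 ± 0.16 SE, adjusted p = 0.316, edgeR). The groups did not overlap, and 45 of 80 members were lower in stress without overlap there (20.3% of all genes lower) and 1 higher (19.3%). Rpl21 was 3873 and 3863 CPM in control and 2928 and 2772 CPM in stress in the same class (-0.44 ± 0.16, adjusted p = 0.344, edgeR). These 2 genes had the smallest unadjusted p there and were picked after their values were seen. In monocytes 44 members were lower without overlap (19.9% of genes) and 0 higher (20.4%), and in naive-marker T cells 35 (17.2%) and 0 (18.7%). Macrophages had 22 lower (21.1%) and 2 higher (22.5%). Counts in plasma cells were 12 (20.9%) and 5 (21.5%), in resting B cells 9 (18.1%) and 3 (19.4%), in dividing B cells 8 (15.7%) and 5 (17.2%), in activated B cells 7 (18.7%) and 8 (20%), and over all kept barcodes 16 (17.4%) and 2 (19.7%).

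No stalk gene, and not Rpsa, passed the test in any class. Rplp0 differed by -0.25 ± 0.22 in naive-marker T cells, -0.21 ± 0.17 in other T cells and 0.08 ± 0.18 in resting B cells. Rplp1 in other T cells was 4354 and 6010 CPM in control against 3945 and 4564 CPM in stress, with overlap (-0.28 ± 0.18), and Rplp2 differed there by -0.13 ± 0.17. Rpsa was lower without overlap in other T cells, with 5974 and 5972 against 5438 and 4698 CPM (-0.24 ± 0.16), and in monocytes, with 3872 and 3753 against 3309 and 3026 CPM (-0.27 ± 0.15). Over all kept barcodes Rplp1 differed by -0.38 ± 0.36, and it was called at -0.75 without control 1 (adjusted p = 0.0124, edgeR). Rpsa in plasma cells stood at 1381, 1350, 1373 and 1291 CPM over the 4 libraries in the usual order, a difference of -0.04 ± 0.13. Among paralogs, Rps27l in macrophages was 195 and 156 CPM in control against 211 and 309 CPM in stress, without overlap (0.53 ± 0.23), on 43 macrophage barcodes in control 2. Rps29 differed by 0.44 ± 0.25 in resting B cells, with 3371 and 3487 CPM in control, 3170 CPM in stress 1 and 6124 CPM in stress 2, so its 2 stress libraries lay on both sides of the controls. Without stress 1, Rps29 was called in dividing B cells (0.93), plasma cells (0.82) and resting B cells (0.84), and Rps27 in dividing B cells (0.79), with adjusted p of 0.00435, 0.0115, 0.0100 and 0.0487 (edgeR). Each of these then rests on 1 stress library.

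As a share of UMIs, ribosomal protein genes in other T cells made up 23.2% and 25.8% in control and 21.7% and 21.6% in stress, a difference of -2.83 percentage points without overlap (two-sided exact permutation p = 0.333, the smallest that 2 against 2 libraries allow). In monocytes the shares were 17.9% and 18.8% against 15.8% and 17.1%, a difference of -1.89 points (exact permutation p = 0.333). Naive-marker T cells differed by -3.12 points with overlap (exact permutation p = 0.667), macrophages by -0.41 (p = 1, exact permutation), and plasma cells by 0.17 (p = 1, exact permutation). Without control 2 the difference was -1.56 points in other T cells, -1.15 in naive-marker T cells and 1.43 in macrophages. Without control 1 it was -5.10 in naive-marker T cells and -2.26 in macrophages, and without stress 1 it was -1.22 in monocytes. Over all kept barcodes the share was 17.6%, 26.6%, 16.9% and 15.8%, a difference of -5.80 points (exact permutation p = 0.333) that became -1.29 without control 2. Control 2 also had the lowest immunoglobulin share, 9.87% of UMIs against 20.7% to 34.1%, and 1201 naive-marker T cell barcodes against 112 to 570. Without immunoglobulin and mitochondrial UMIs the shares were 23.4% and 31.5% in control and 25.4% and 25.5% in stress, a difference of -1.98 points in which the groups overlapped and both stress libraries stood above control 1. The mixture of cells and the level per cell cannot be told apart in that sum.

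Whether the effect of stress differed among classes was tested directly in 1 fit with all class-by-treatment terms. It called 0 of 80 members (2.17% of 10140 genes called) and gave 17 members at an unadjusted p under 0.05 (13.9% of genes), with a smallest adjusted p of 0.183 (edgeR). The depth and number of libraries set what could be seen. The median half-width of a member's 95% confidence interval was 0.32 to 0.46 in the 8 classes, and the intervals of 77 to 80 of the 80 members lay within 1 log2 unit on either side of 0. Over all kept barcodes the half-width was 0.73, and 47 of 81 intervals lay within that range.

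Other genes of ribosome supply were described in the same fits. With stress, 0 genes of 6 lists (elongation factors and TOP partners, 12 genes; 4 ribosomal proteins outside the name rule; initiation factors, 20; ribosome biogenesis, 25; control of TOP mRNAs and ribosome synthesis, 14; mitochondrial ribosomal proteins, 33) passed in any class or over all kept barcodes by edgeR or DESeq2. Of the 96 to 108 tested in a fit, 2 to 12 had an unadjusted p under 0.05 (edgeR), where 4.47% to 14.4% of all genes did. The 12 were among 106 in other T cells, where 8.83% of all genes did. In plasma cells against resting B cells, where 31.6% of all genes were higher and 32% lower, elongation factors and TOP partners had 10 lower and 0 higher of 12, led by Nap1l1 (-1.21), Hnrnpa1 (-1.07) and Npm1 (-1.06), and ribosome biogenesis had 15 lower and 1 higher of 25, with Nop10 at -1.24 and Bop1 at 0.75. Initiation factors went the other way, with 12 higher and 3 lower of 20: Eif3b rose by 0.97, Eif4g1 by 0.92 and Eif2s2 by 0.90, and Eif3e fell by 0.93. Mitochondrial ribosomal proteins had 17 higher and 5 lower of 33. Of the control genes, 6 were higher and 4 lower of 14, near the shares of all genes, with Eif4ebp1, the mTOR-regulated translation repressor, at 2.16 and Mtor at 1.11, and Sesn1 at -1.95. Fau, whose product includes the small-subunit protein eS30, fell by 1.52, and Rpl36al, the paralog of Rpl36a, rose by 1.66.

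Dividing B cells against resting B cells, where 23.8% of all genes were higher and 25.7% lower, had 11 biogenesis genes higher and 0 lower of 25 (Dkc1 0.93, Nop16 0.91, Nhp2 0.85), and 25 mitochondrial ribosomal protein genes higher and 1 lower of 33 (Mrpl18 1.88), while 68 cytosolic members were lower. Initiation factors were higher in 13 and lower in 2 of 20. Naive-marker against other T cells, where 7.91% of genes were higher and 9.37% lower, had 9 elongation and TOP partner genes higher and 0 lower of 12 (Eef1b2 0.94, Eef1g 0.84, Tpt1 0.65), 9 biogenesis genes higher and 0 lower of 25 (Nop2 1.07), and all 4 ribosomal proteins outside the rule higher (Rack1 0.64). Mitochondrial ribosomal proteins had 1 higher and 0 lower of 33 in that contrast. Macrophages against resting B cells, where 31.8% of genes were lower, had 11 of 12 elongation and TOP partner genes lower (Eef1g -1.22), and 16 of 25 biogenesis genes lower (Rrs1 -1.73, Polr1b -1.55). Eif4e, the cap-binding protein, rose by 1.79 in macrophages and 1.56 in monocytes. In activated B cells, where 1.57% of genes were higher, 2 of 25 biogenesis genes rose, Gnl3 by 0.74 and Nolc1 by 0.57, and Eif4a1 by 0.41.

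The genes outside the set whose level most resembled the ribosomal protein share were ranked over 32 sums (8 classes in 4 libraries). The ranking took 1203 genes with a mean of at least 100 CPM of total UMIs, without TMM factors. Pearson r, a description over sums that share libraries, was 0.97 for Wdr89 and Rps27rt, 0.96 for Eef1a1, Zcchc11, Git2, Crlf3, Eif3e, Gm11808 and Hspe1, and 0.95 for Rack1.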

How the data were processed

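The authors deposited UMI counts per gene and barcode, 1 matrix a library. Per the submitters' processing notes, Cell Ranger (5 and 5.0 are named) was used with mm10; per the file headers the matrix software was 3.1.0. Annotation release and aligner settings: not given in the sources used here. Gene and barcode lists beside each matrix hold names only.

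Barcodes under 500 UMIs, or above 10% mitochondrial UMIs, were dropped. A barcode took the class with the most detected markers among 11 lists of 6, if it led by at least 2. Barcodes without that lead were left out, which was the main treatment of doublets. Kept barcodes could still carry markers of other classes. Plasma cells had a median of 2 B cell markers per barcode, and dividing B cells a median of 2 to 3 plasma cell markers. Leaving out the highest Scrublet scores was an alternative. Counts were summed by library and class for the 8 classes with at least 30 barcodes in every library, and fitted on all genes with edgeR 4.0.16 (robust quasi-likelihood, TMM, filterByExpr, adjusted p under 0.05) in R 4.3.3, with DESeq2 1.42.0 as an alternative. Libraries were the replicates. On simulated counts for resting B cells, stress against control, with 200 of 9651 genes changed, 50% of changes of 1 log2 unit and 96% of 2 were recovered, with 12 and 11 false calls. Named genes were the 3 members with the largest called difference each way at a mean of at least 100 CPM, a fixed list of stalk, paralog and short members, up to 3 called genes a pathway list, and the 10 most alike genes; some of these are not reported here. In TMM contrasts with resting B cells, where it had 77.6 CPM, Rps27l met the limit of 100 CPM only through the other class. The members and lists were chosen with earlier results of these data known. Coordinates are 1-based on GRCm38.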

Additional observations from a re-analysis of the deposited data

How the results depend on the processing

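Of 353 values under other settings, 329 kept their call or stayed within a limit. The limit was 1.5 times for counts of calls. For differences in share of UMIs it was a move of less than the pooled SD of libraries within groups. The alternatives were edgeR's RLE scaling, TMM over genes that are not members, total UMIs alone, DESeq2, no filter on low counts, 25% mitochondrial UMIs, a class lead of 3, Scrublet, and each library left out. Leaving out 1 library gave 0 to 18 calls with stress over all kept barcodes (18 without control 1), 0 to 1 in activated B cells (1 without control 2), plasma cells and resting B cells (1 without stress 1 in each), 0 to 2 in dividing B cells (2 without stress 1) and 0 to 2 in macrophages (2 without control 1, 1 without control 2). Between classes, it gave 11 (without stress 1) to 45 (without stress 2) calls for naive-marker T cells against resting B cells, from 23, and 2 (without control 1; 4 without stress 1) to 14 for macrophages against monocytes, from 10. For the division among members it gave 10 to 18, 19 to 32, 8 to 15 and 2 to 5 calls for naive-marker T cells and other T cells against resting B cells, naive-marker against other T cells and macrophages against monocytes, from 25, 33, 21 and 6 (lowest without stress 1 in the first 3 and without control 1 in the last). Naive-marker T cells gave 14 and 12 without control 1 and 15 and 12 without stress 2, and macrophages 3 without control 2. RLE scaling gave 38 calls for naive-marker T cells against resting B cells (37 higher, 1 lower) and 16 for macrophages against monocytes, where total UMIs alone gave 29 and a lead of 3 gave 6. Rpl41 in plasma cells turned to -0.93 with total UMIs alone. The cause of these changes was not tested. Of 570 values of named genes between classes, 546 kept their call and 23 lost it with the same sign.

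Control 1 and stress 1 share a replicate number, as do control 2 and stress 2. The labels do not say that these numbers pair libraries, so they were not taken as pairs. Deviations of same-numbered libraries correlated from -0.389 to 0.00209, which with 2 libraries a group cannot decide whether they are pairs. With the replicate block 0 members were called with stress in every class, and 0 with the crossed numbers, which were added after seeing the data, as was scaling by the ribosomal protein total, which also gave 0. Having 2 libraries a group, and 33 dividing B cell barcodes in control 1 and 43 macrophage barcodes in control 2, limits what could be seen.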
